A study of Mus musculus with 9 samples.

Results

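The 5 casein genes of the mouse, Csn1s1, Csn2, Csn1s2a, Csn1s2b and Csn3, were followed through RNA-seq libraries of sorted thymic epithelial cells (TEC). The genes were taken by name, without reference to their levels, and all 5 were found among the 38720 genes of the deposited table. There were 20 libraries in 6 groups. Medullary TEC (mTEC, sorted as CD45- EpCAM+ MHCII+ Ly51- UEA1+) came from heterozygous transgenic mice (wt*/-::nu/nu, 2 libraries) and homozygous transgenic mice (wt*/wt*::nu/nu, 2 libraries). Cortical TEC (cTEC, sorted as CD45- EpCAM+ MHCII+ Ly51+ UEA1-) came from the same heterozygous and homozygous genotypes, with 3 libraries each. In these 4 groups the nude background leaves no working endogenous Foxn1, so the factor came from the BAC transgene alone. The other 2 groups were cTEC taken 72 hours after doxycycline. The deleted group (5 libraries) carried homozygous beta5t-rtTA, homozygous Foxn1fl/fl and heterozygous tetO-Cre1Jaw/J, a model for loss of exons 7 and 8 of Foxn1. Its control group (5 libraries) had the same beta5t-rtTA and Foxn1fl/fl alleles and the same doxycycline but no tetO-Cre1Jaw/J. The beta5t promoter limits this deletion to cells in which it is active when doxycycline is given, and ages were not given in the labels.

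Caseins are the main proteins of milk. They are secreted phosphoproteins that bind calcium phosphate and assemble into micelles. Csn1s1 encodes alpha-S1-casein, Csn2 beta-casein, Csn1s2a and Csn1s2b the alpha-S2-like caseins, and Csn3 kappa-casein, which coats the micelle surface and keeps it in solution. In the lactating mammary gland these genes are switched on through the prolactin receptor and STAT5. In the thymus, mTEC express many genes of other tissues at low level, in part through the regulator AIRE, so that developing T cells meet those proteins as self antigens. FOXN1 is the transcription factor on which TEC development depends.

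Each library held between 20719630 and 22372633 counts. The sort labels were matched by the markers: the summed level of 10 mTEC markers was 6332 to 6461 CPM (the count scaled to the library total) in heterozygous mTEC and 7240 to 7910 CPM in homozygous mTEC, against 1281 to 1453 CPM in heterozygous cTEC and 548 to 582 CPM in homozygous cTEC. The summed level of 9 cTEC markers was 752 to 809.5 CPM in heterozygous mTEC and 1304 to 1543 CPM in homozygous mTEC, against 3007 to 3534 CPM in heterozygous cTEC and 19096 to 21289 CPM in homozygous cTEC, and it was 3681 to 4173 CPM in deleted and 7533 to 25999 CPM in control cTEC. Foxn1 itself, the targeted gene, averaged 495 ± 9.83 CPM in heterozygous mTEC and 318 ± 15.5 CPM in homozygous mTEC (SD, n = 2 each), and 1166 ± 38.0 CPM in heterozygous cTEC and 1364 ± 103 CPM in homozygous cTEC (SD, n = 3 each). In the doxycycline groups it averaged 434 ± 81.1 CPM after deletion and 454 ± 91.6 CPM in the controls (SD, n = 5 each; edgeR adjusted p = 0.783). In mTEC Foxn1 was thus higher in heterozygous than in homozygous mice, opposite to the transgene dose of the labels, whereas in cTEC it was lower. Counts over the whole gene do not separate transgene from nude-allele transcripts and were not split by exon, so they check neither dose nor deletion. Psmb11, which encodes beta5t, was at 0.319 ± 0.297 CPM in deleted and 0.920 ± 0.555 CPM in control cTEC.

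The casein genes lie in a single cluster on chromosome 5. In the RefSeq annotation of GRCm38.p6 the cluster spans chr5:87666208-87932550, a stretch of 266 kb. Csn1s1 occupies chr5:87666208-87682578, Csn2 chr5:87692619-87699429, Csn1s2a chr5:87774450-87788798, Csn1s2b chr5:87808121-87824421 and Csn3 chr5:87925579-87932550. RefSeq promoter sequence was at hand for 3 of the 5 members, Csn1s1, Csn2 and Csn1s2a. It is shown because Csn2 and its neighbours gave very different read counts in the same bulk libraries. The 240 bases from 250 to 11 before each annotated start are given 5′ to 3′ on the gene's own strand, plus for Csn1s1 (chr5:87665958-87666197) and Csn1s2a (chr5:87774200-87774439) and minus for Csn2 (chr5:87699436-87699675). Capitals mark matches to TTCNNNGAA, the core of the element that STAT5 binds.
Csn1s1: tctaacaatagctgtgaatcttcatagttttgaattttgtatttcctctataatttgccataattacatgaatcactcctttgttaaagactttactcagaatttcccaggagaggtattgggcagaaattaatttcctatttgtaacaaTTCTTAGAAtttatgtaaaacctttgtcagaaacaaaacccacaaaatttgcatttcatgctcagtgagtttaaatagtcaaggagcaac
Csn2: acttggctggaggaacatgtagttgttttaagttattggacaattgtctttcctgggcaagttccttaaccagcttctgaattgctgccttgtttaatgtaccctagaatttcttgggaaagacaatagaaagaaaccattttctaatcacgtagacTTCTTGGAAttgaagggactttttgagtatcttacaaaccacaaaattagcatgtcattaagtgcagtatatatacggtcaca
Csn1s2a: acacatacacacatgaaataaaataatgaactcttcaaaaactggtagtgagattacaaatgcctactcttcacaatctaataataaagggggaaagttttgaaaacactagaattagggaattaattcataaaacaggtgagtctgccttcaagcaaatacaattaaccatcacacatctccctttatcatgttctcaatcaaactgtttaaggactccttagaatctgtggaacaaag
The match lay 100 to 92 bases before the start of Csn1s1 and 93 to 85 bases before the start of Csn2. The Csn1s2a window held none. The motif is its own reverse complement, so both strands were read at once, and it occurred in 6.77% of 32841 mouse promoter windows of the same length. GACGC, the core sequence bound by FOXN1, was searched on both strands, was absent from the 3 casein windows and occurred in 21.6% of all windows.

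Csn2 supplied most casein counts in every group. It had 4396 and 4304 counts in the heterozygous mTEC libraries and 22340 and 20582 in the homozygous mTEC libraries. The cTEC libraries held 8, 3 and 9 counts in heterozygous mice and 56, 51 and 27 counts in homozygous mice. The groups did not overlap, and the libraries within each mTEC group lay close together. Among all genes with a count, Csn2 ranked 837th and 879th by count in heterozygous mTEC and 54th and 57th in homozygous mTEC.

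The other members were far less abundant by counts, which are not scaled for transcript length. Csn1s1 had 32 and 30 counts in heterozygous mTEC and 312 and 315 in homozygous mTEC, 0 in each heterozygous cTEC library and 0, 1 and 0 in homozygous cTEC. Csn1s2a had 31 and 28 counts in heterozygous mTEC and 448 and 332 in homozygous mTEC, and 0 in each of the 6 transgenic cTEC libraries. Csn3 had 15 and 17 counts in heterozygous mTEC and 96 and 81 in homozygous mTEC, 0 in each heterozygous cTEC library and 1, 0 and 0 in homozygous cTEC. For these genes the mTEC libraries were all above the cTEC libraries, and homozygous mTEC were all above heterozygous mTEC. How many of all genes separate as Csn2 and these genes do was not counted. Csn1s2b, the lowest member, had 5 and 3 counts in heterozygous mTEC, 26 and 18 in homozygous mTEC and 0 in the transgenic cTEC libraries.

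In mean CPM the groups for Csn2 ran from 993.6 ± 57.7 in homozygous mTEC and 205.1 ± 2.75 in heterozygous mTEC (SD, n = 2 each) to 3.73 ± 2.81 for deleted and 3.71 ± 1.79 for control cTEC (n = 5 each), 2.07 ± 0.699 in homozygous cTEC and 0.306 ± 0.146 in heterozygous cTEC (SD, n = 3 each). Deleted and control cTEC overlapped, as did control and homozygous cTEC. The other neighbours in this order did not overlap. A level of 0 was read against a floor of 3 counts over the group, which is 0.0460 CPM for heterozygous and 0.0465 CPM for homozygous cTEC. Csn1s1 and Csn3 in homozygous cTEC, with 0.0151 and 0.0156 CPM on average, lay under that floor.

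**Figure D1:**
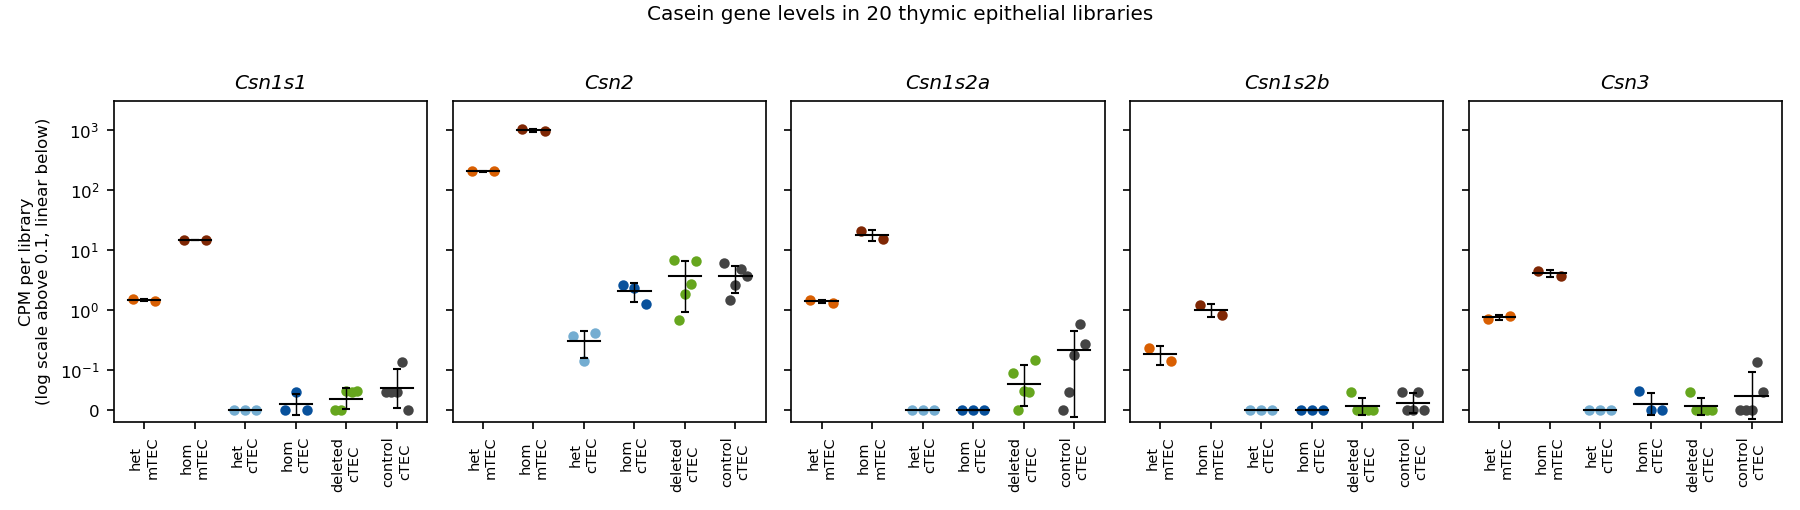
CPM of each casein gene in each of the 20 libraries (points), with the group mean (line) and SD (bar); the axis is logarithmic above 0.1 CPM and linear below. Csn2 averages 205.1 CPM in heterozygous and 993.6 CPM in homozygous mTEC, and the highest value of any other member is 20.7 CPM, for Csn1s2a in a homozygous mTEC library.

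In homozygous mice Csn2 was much higher in mTEC than in cTEC. The summed counts, 42922 in 2 mTEC libraries against 134 in 3 cTEC libraries, gave a ratio of 478 (95% exact interval 404 to 571, counting error only), and the fitted log2 fold change was 8.65 ± 0.149 (SE; edgeR quasi-likelihood adjusted p = 4.80e-14). All 5 members passed the test with higher levels in mTEC, in a comparison where 43.2% of 19222 genes tested passed as higher, 39.4% as lower and 82.6% in either direction. Csn1s2a was at least 388-fold and Csn1s2b at least 21.9-fold higher, taking 3 counts over the cTEC group where none were seen. Csn1s1 had 627 mTEC counts against 1 cTEC count, a ratio of 936 (interval 167 to 37022), and Csn3 had 177 against 1, a ratio of 264 (46.8 to 10493). Csn1s1, Csn1s2a, Csn1s2b and Csn3 passed the low-count filter through their mTEC counts alone, and Csn1s2b through homozygous mTEC alone, so their passing this test follows in part from the filter. The filter-free exact permutation test of 4 mTEC against 6 cTEC libraries on log2(CPM + 0.5) gave p = 0.00952 for each member (two-sided, also after adjustment over the 5), the smallest value this design allows, with higher levels in 4 of 4 mTEC libraries. The share of all genes that reach this value was not computed. Without normalization factors 9581 genes were called higher and 5724 lower in this comparison, against 8303 and 7577 with them.

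Csn2 was also higher in mTEC than in cTEC of heterozygous mice, with a log2 fold change of 9.27 ± 0.191 (SE; edgeR adjusted p = 2.23e-13), with 8700 against 20 counts and a ratio of 669 (433 to 1096). The 5 members passed again, where 40.4% of genes tested passed as higher, 31.6% as lower and 72% in either direction. Csn1s2b entered this comparison only through its homozygous mTEC counts, and in a fit of the heterozygous libraries alone it was not tested and 4 members passed. Csn1s1 was at least 31.8-fold, Csn1s2a at least 30.3-fold, Csn3 at least 16.4-fold and Csn1s2b at least 4.10-fold higher in mTEC. The median fitted change of the 5 members was 8.65 in homozygous mice, and 8.60 with the 2 members at 0 in cTEC set to their bound, against 0.04 over all genes tested. In heterozygous mice it was 7.83, and 4.92 with 4 members at their bound, against 0.09 over all genes.

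Markers of other cells were also higher in mTEC. The summed level of 8 macrophage and dendritic cell markers was 107.5 to 110.5 CPM in heterozygous and 529.8 to 625.2 CPM in homozygous mTEC, against 7.11 to 8.57 CPM in heterozygous and 3.99 to 6.17 CPM in homozygous cTEC, with none of the 8 at 0 in any of these groups. For 5 B cell markers the sums were 17.7 to 20.6 and 36.6 to 44.4 CPM in heterozygous and homozygous mTEC, against under 1 CPM in every transgenic cTEC library. Between homozygous mTEC and cTEC, 3 of 3 adipocyte, 4 of 4 parathyroid, 6 of 7 fibroblast and 3 of 4 endothelial markers tested were also higher in mTEC, whereas of 12 thymocyte markers 2 were higher and 4 lower. Over all genes 43.2% were higher. Adipoq, Plin1, Gcm2 and Pdgfra passed the low-count filter through their mTEC counts alone, and Cdh5 and Kdr reached its minimum count in only 1 cTEC library. A call of these genes follows in part from the filter. The part of other cells in the casein levels was not tested. In bulk libraries fewer cells that express a gene and less RNA per cell cannot be told apart.

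The transgene dose comparison asked how the caseins differ between mTEC heterozygous for the Foxn1 transgene and mTEC homozygous for it. Csn2, at 205.1 ± 2.75 CPM in heterozygous and 993.6 ± 57.7 CPM in homozygous mTEC, was 4.77-fold lower in heterozygous mTEC (log2 fold change -2.25 ± 0.118 SE, edgeR adjusted p = 2.24e-08). Csn1s1 averaged 1.46 ± 0.0644 CPM in heterozygous and 14.5 ± 0.0967 CPM in homozygous mTEC, a log2 fold change of -3.28 ± 0.209 (adjusted p = 4.57e-07). Csn1s2a averaged 1.39 ± 0.0979 CPM in heterozygous and 18.1 ± 3.80 CPM in homozygous mTEC, with -3.67 ± 0.238 on the log2 scale (adjusted p = 2.67e-06). Heterozygous mTEC thus had 9.73-fold less Csn1s1 and 12.7-fold less Csn1s2a, and whether these folds differ from that of Csn2 was not tested in the fit.

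For the last 2 members the fitted folds were 5.31 and 5.18. Csn3 averaged 0.754 ± 0.0678 CPM in heterozygous and 4.10 ± 0.491 CPM in homozygous mTEC, with a log2 fold change of -2.41 ± 0.294 (edgeR adjusted p = 4.58e-05). Csn1s2b averaged 0.189 ± 0.0664 CPM in heterozygous and 1.02 ± 0.262 CPM in homozygous mTEC, with a log2 fold change of -2.37 ± 0.486 (adjusted p = 0.00255). Csn1s2b passed the low-count filter through homozygous mTEC alone, the group where it is high, so its call follows in part from the filter. With DESeq2 in place of edgeR the Csn1s2b change was -2.54 with an adjusted p of 0.0559, so that call was lost. The other 4 members, which passed the filter through both mTEC groups, had a median of -2.85. The 5 casein calls stand in a comparison where 30.8% of genes tested passed as lower, 28.9% as higher and 59.7% in either direction. The median of the 5 was -2.41 against 0.01 over all genes tested, and from the lowest of the 19222 fold changes Csn1s2a ranked 218th, Csn1s1 346th, Csn3 1019th, Csn1s2b 1065th and Csn2 1224th. With RLE in place of TMM scaling this comparison had 3911 genes higher and 7082 lower, against 5550 and 5922, and the casein median was -2.54.

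The make-up of the casein counts was also compared. Members other than Csn2 made up 1.78% and 1.85% of casein counts in the heterozygous mTEC libraries and 3.50% and 3.80% in the homozygous mTEC libraries. The pairs did not overlap, although 2 libraries against 2 cannot reach an exact two-sided permutation p below 0.333. Csn1s1 contributed 0.714% (95% Clopper-Pearson interval 0.489 to 1.01) and 0.685% (0.462 to 0.976) in heterozygous mTEC, and 1.34% (1.20 to 1.5) and 1.48% (1.32 to 1.65) in homozygous mTEC. Csn1s2a contributed 0.692% (0.471 to 0.981) and 0.639% (0.425 to 0.922) in heterozygous mTEC, and 1.93% (1.76 to 2.11) and 1.56% (1.39 to 1.73) in homozygous mTEC. For both genes the intervals of the heterozygous libraries lay below those of the homozygous libraries. Over the group sums the shares of Csn3, 0.361% in heterozygous and 0.397% in homozygous mTEC, and of Csn1s2b, 0.0903% and 0.0988% in the same order, lay close together. The intervals cover counting error only.

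Other cell markers moved with dose in mTEC as well, beside 30.8% of all genes lower and 28.9% higher. Of 8 macrophage and dendritic cell markers 7 were lower in heterozygous than homozygous mTEC, with a median log2 fold change of -2.05, and the sums were those given above. All 12 thymocyte markers were lower in heterozygous mTEC, with sums of 41.3 to 42.1 CPM in heterozygous and 81.3 to 103 CPM in homozygous mTEC. Without Ptcra, which would not have passed the low-count filter without homozygous mTEC, 11 of 11 were lower. The adipocyte marker sum was 44.9 to 48.3 CPM in heterozygous and 314 to 369.7 CPM in homozygous mTEC, and 3 of 3 tested were lower. Fabp4, a fatty acid carrier of adipocytes and macrophages, made up 44.4 CPM of it in heterozygous and 334 CPM in homozygous mTEC. Plin1 passed the low-count filter through homozygous mTEC alone, and without it 2 of 2 adipocyte markers were lower. Of 5 B cell markers 3 were lower and 1 was higher. All 9 cTEC markers were lower in heterozygous mTEC as well, with a median of -0.89. Of 10 mTEC markers 5 were lower and 1 was higher, with a median of -0.24, and with RLE scaling 7 were lower and 0 higher. Their part in the casein difference was not tested. Aire did not pass between these groups, with 1009 ± 14.7 CPM in heterozygous and 1109 ± 112 CPM in homozygous mTEC (SD, n = 2 each; log2 fold change -0.11 ± 0.122 SE, edgeR adjusted p = 0.446).

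**Figure D2:**
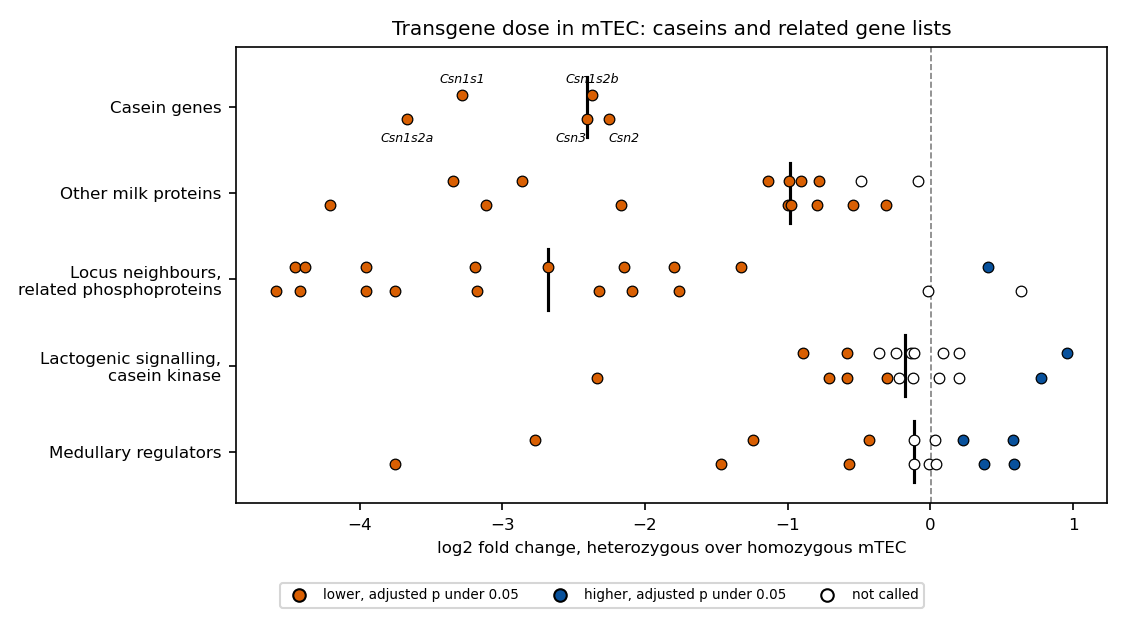
Fitted log2 fold change of heterozygous over homozygous mTEC for the caseins and 4 related gene lists; each point is a tested gene, filled where its adjusted p passed, the thick bar is the list median and the dashed line the median of all genes tested (0.01). The 5 caseins lie between -3.67 and -2.25, and the list medians are -0.98 for other milk proteins, -2.68 for locus neighbours and related phosphoproteins, -0.18 for lactogenic signalling and -0.11 for medullary regulators. Some genes passed the low-count filter through homozygous mTEC alone. Without them the medians are -2.85 for caseins, -0.94 for other milk proteins, -2.09 for locus neighbours and -0.13 for lactogenic signalling.

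In cTEC only Csn2 had counts to compare by dose. It averaged 0.306 ± 0.146 CPM in heterozygous and 2.07 ± 0.699 CPM in homozygous cTEC, a log2 fold change of -2.87 ± 0.341 (SE; edgeR adjusted p = 1.46e-05), with no overlap between the 3 and 3 libraries, and the summed counts were 20 against 134. Csn2 was the single member called, where 21.9% of genes tested passed as lower, 20.9% as higher and 42.8% in either direction, and the other 4 members were at or under the floor in both groups. The difference between the dose effects of mTEC and cTEC was tested directly for Csn2: the interaction was 0.62 ± 0.397 on the log2 scale (edgeR adjusted p = 0.236), where 42.5% of genes tested passed, 25.2% above and 17.2% below 0. None of the 5 members passed this interaction with edgeR, where none had an unadjusted p under 0.05. None passed with DESeq2, where Csn1s2a had an unadjusted p of 0.0332, and 4 passed with limma-voom. Those 4 were Csn1s1, Csn1s2a, Csn1s2b and Csn3, which have at most 1 count in any transgenic cTEC library. For them no fit can decide the interaction. Csn1s2a and Csn1s2b, with 0 counts in both cTEC groups, had edgeR SEs of 7876 and 4561 and could not pass. Leaving out homozygous cTEC library 3 brought the Csn2 interaction to 0.87 (adjusted p = 0.0372). Without normalization factors 5931 genes were called higher and 2859 lower between heterozygous and homozygous cTEC, against 4024 and 4201 with them, and with RLE scaling the interaction had 3403 higher and 3925 lower, against 4848 and 3314. The thymocyte marker list was lower in heterozygous cTEC in 12 of 12 genes, and of 10 mTEC markers 6 were higher and 3 lower there. Krt5, Krt14 and Ccl21a were among the higher ones, while Aire, at 1.42 ± 0.191 CPM in heterozygous and 2.25 ± 0.831 CPM in homozygous cTEC, Cd80 and Ccl19 were lower. With DESeq2 6 mTEC markers were higher and 2 lower, without normalization factors 7 and 2, and with limma-voom 6 and 1. The Aire ranges overlapped, and Cd80 reached the minimum count of the filter in 0 transgenic cTEC libraries. The part of these markers in the Csn2 difference was not tested.

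Set against Aire, Csn2 had similar ratios in mTEC and cTEC of the same genotype. Csn2 CPM per Aire CPM was 0.207 and 0.199 in heterozygous mTEC and 1.00 and 0.802 in homozygous mTEC. In cTEC, where Aire was at 1.30 to 1.64 CPM in heterozygous and 1.33 to 2.95 CPM in homozygous mice, the ratio was 0.222, 0.107 and 0.310 in heterozygous and 1.06, 0.785 and 0.964 in homozygous libraries. Within each genotype the mTEC range lay inside the cTEC range, whereas the 2 genotypes did not overlap in either compartment. The heterozygous cTEC ratios rest on 3 to 9 Csn2 counts. The comparison with Aire was chosen after its values were seen, and no test of these ratios was made. Ratios to the other mTEC markers were not computed, and the similarity need not hold for them. Between mTEC and cTEC the 10 mTEC markers had a median log2 fold change of 5.34 in homozygous and 4.19 in heterozygous mice. Csn2 had 8.65 and 9.27 in the same order.

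**Figure D3:**
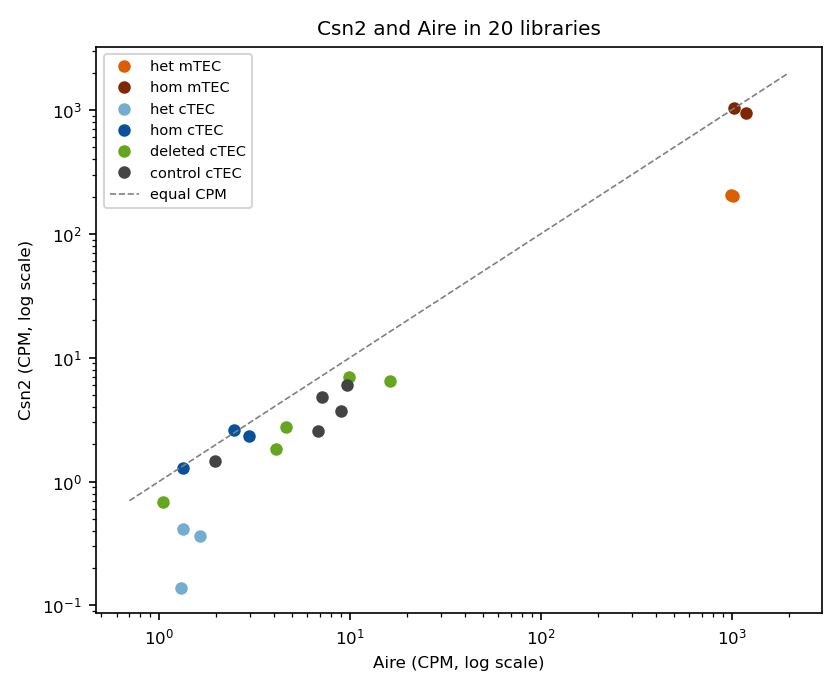
Csn2 against Aire, both in CPM on log axes, for the 20 libraries coloured by group; the dashed line marks equal CPM. Heterozygous libraries, mTEC and cTEC, lie below the line at a ratio of 0.107 to 0.310, homozygous libraries lie near it at 0.785 to 1.06, and deleted and control cTEC lie between at 0.377 to 0.744.

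Deletion of Foxn1 in cTEC was the other comparison. Csn2 had 150, 15, 38, 60 and 134 counts in the deleted libraries and 131, 32, 57, 107 and 83 in the control libraries. The groups overlapped over nearly their whole range. The log2 fold change was -0.02 ± 0.573 (SE; edgeR adjusted p = 0.993), and the exact two-sided permutation test on log2(CPM + 0.5) gave p = 0.778 (0.972 adjusted over the 5 members). With an SE of this size the p does not show that the groups were alike. In this comparison 1.97% of 15224 genes passed, 1.69% as lower and 0.282% as higher, and Csn2 was the single member with enough counts to be tested. It was not called by edgeR, had an unadjusted p of 0.978, and was not called by DESeq2 or limma-voom. These tests left the libraries unpaired. With a block for library number, 398 genes passed as higher and 822 as lower. Csn2 was not called there either (log2 fold change -0.22 ± 0.270 SE, edgeR adjusted p = 0.617).

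Csn1s2a was the next most abundant casein in these 10 libraries. It had 2, 0, 1, 1 and 3 counts in deleted and 0, 1, 4, 13 and 6 counts in control cTEC, a ratio of 0.301 on the sums of 7 and 24 (95% exact interval 0.110 to 0.720, counting error only). The spread between libraries was wider than that interval allows for: the highest count came from control library 4, the groups overlapped, and the exact permutation test gave p = 0.222 (0.972 adjusted), where 5 against 5 can reach 0.00794. Csn1s1 had 3 counts in the deleted and 6 in the control group, Csn1s2b 1 and 2, and Csn3 1 and 4. Control library 4 held 3 of the 6 Csn1s1 and 3 of the 4 Csn3 counts in the control group. Members other than Csn2 made up 15.7% of its casein counts, against 1.504% in control library 1.

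Csn2 varied more among these 10 libraries than between the groups, and Aire varied with it. Aire ranged from 1.05 to 16.3 CPM in deleted and from 1.96 to 9.64 CPM in control cTEC. Across the 10 libraries log2(CPM + 0.5) of Csn2 and Aire had a Pearson r of 0.940 (permutation p = 3.0e-05, 6.0e-05 adjusted over 2 relations) and a Spearman rho of 0.964 (permutation p = 0.00012, 0.00024 adjusted). It was 0.850 without the 2 libraries farthest from the Aire median, 0.967 within the 5 deleted and 0.870 within the 5 control libraries. With the sum of 10 mTEC markers, which ran from 931 to 2235 CPM in deleted and from 979 to 2012 CPM in control cTEC, r was 0.689 (permutation p = 0.0306) and rho 0.758 (permutation p = 0.0150), unchanged by adjustment over the 2 relations. That relation dropped to 0.457 without the 2 farthest libraries, so it rests on them in part. The permutation takes the 10 libraries as exchangeable, although same-numbered deleted and control libraries correlated over genes at 0.352 to 0.754 in 4 of 5 pairs, so these p-values may be too small. Aire is itself among the 10 markers, and both relations were chosen after the values were seen.

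Other milk proteins, from a list of 17 genes, showed the same directions in mTEC with exceptions. Between homozygous mTEC and cTEC 14 of 16 tested were higher and 2 were lower, beside 43.2% and 39.4% of all genes, with a median of 6.02 (5.74 with the gene at 0 in cTEC at its bound). Wap, Glycam1 and Btn1a1 passed the low-count filter through their mTEC counts alone, and Cel reached its minimum count in only 1 cTEC library. The calls of these genes follow in part from the filter. The examples with the smallest p were Muc1, a mucin of the milk fat globule, at 6.58 ± 0.115, Wfdc18, a secreted whey acidic protein relative, at 7.54 ± 0.186, and Lpo, lactoperoxidase, at 3.94 ± 0.0989 (log2 fold change ± SE, edgeR adjusted p of 5.70e-13 or less). Xdh, xanthine dehydrogenase, was lower at -1.16 ± 0.130 (adjusted p = 1.82e-06), and Mfge8, an adhesion protein of the milk fat globule, at -0.37 ± 0.0970 (adjusted p = 0.00328). Mfge8 and Xdh were the 2 exceptions; with RLE or no scaling factors 1 of the list was lower. Lalba, the whey protein alpha-lactalbumin, averaged 0.0235 CPM in heterozygous and 0.116 CPM in homozygous mTEC and was at 0 in the 4 cTEC groups.

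By dose in mTEC, 14 of 16 other milk proteins were lower in heterozygous mice, beside 30.8% of all genes, and the median was -0.98. Without the 2 that passed the filter through homozygous mTEC alone, 12 of 14 were lower and the median was -0.94. Saa3, an acute-phase amyloid protein, fell by 4.21 on the log2 scale (SE 0.221; edgeR adjusted p = 2.24e-08), and Pigr, the receptor that carries IgA into milk, fell by 3.11 (SE 0.255; adjusted p = 8.16e-07). Muc1 fell by 0.78 (SE 0.0836; adjusted p = 7.39e-06). Wap, the whey acidic protein that marks the lactating gland, averaged 0.212 ± 0.10 CPM in heterozygous and 2.25 ± 0.0984 CPM in homozygous mTEC. It is among the 2 that passed through homozygous mTEC alone, so no test of it is given. In the deletion comparison none of 13 tested passed with edgeR or limma-voom, 4 had an unadjusted p under 0.05 and 1 passed as lower with DESeq2.

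Genes that act upstream of the caseins in the mammary gland were called in both directions. Of 18 tested genes for lactogenic signalling and casein phosphorylation 10 were higher and 8 lower between homozygous mTEC and cTEC, where 43.2% of all genes were higher and 39.4% lower. Erbb4 passed the low-count filter through homozygous mTEC alone, so its calls follow in part from the filter. Prlr, the prolactin receptor, was higher in mTEC by 4.27 ± 0.178, Stat5a, its transcription factor, by 3.00 ± 0.111, and Socs2, a feedback inhibitor, by 6.21 ± 0.152 (log2 ± SE, edgeR adjusted p of 6.87e-11 or less). Nfib, a nuclear factor, was lower in mTEC at -2.37 ± 0.0708. By dose in mTEC 6 of 18 were lower and 2 higher, with a median of -0.18, where 30.8% of all genes were lower and 28.9% higher. Without Erbb4, 5 of 17 were lower and 2 higher, with a median of -0.13. Prlr changed by -0.71 ± 0.147 (adjusted p = 0.00110), while Stat5a had 0.20 ± 0.114 (adjusted p = 0.142) and Elf5, an epithelial factor of the milk-secreting lineage, -0.24 ± 0.247 (adjusted p = 0.420). Prl, prolactin itself, averaged 0.0471 CPM in heterozygous and 0.139 CPM in homozygous mTEC.

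Genes known to regulate mTEC, on a list of 15, were higher in homozygous mTEC than cTEC in 12 cases and lower in 3, beside 43.2% and 39.4% of all genes. Cd80, Cd86 and Prdm1 passed the low-count filter through their mTEC counts alone, so their calls here follow in part from the filter. Fezf2, a regulator of tissue-restricted genes, was higher by 8.63 ± 0.106, and Tnfrsf11a, the receptor RANK, by 5.57 ± 0.101 (log2 ± SE, edgeR adjusted p of 5.90e-14 or less). By dose in mTEC 6 were lower and 4 higher, with a median of -0.11, beside 30.8% lower and 28.9% higher of all genes. Cd86 and Cd80, costimulatory molecules of mature mTEC and dendritic cells, changed by -3.75 ± 0.197 and -1.24 ± 0.0923 (adjusted p of 3.53e-07 or less), and Sirt1, a deacetylase that acts on AIRE, by -1.47 ± 0.0590 (adjusted p = 4.29e-09). With RLE scaling the count was 6 lower and 3 higher.

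Genes beside the caseins on chromosome 5 were looked at in turn. RefSeq places 12 genes within the cluster, of which 10 were matched in the table. Odam, a protein of enamel-forming epithelium, which lies between Csn1s2b and Csn3, had 2 and 1 counts in heterozygous and 33 and 19 in homozygous mTEC, and 0 in each transgenic cTEC library. Prr27, listed under an older name, had 1 and 0 counts in heterozygous and 1 and 3 in homozygous mTEC. The pseudogenes Gm25066, Gm24314 and Gm7337 had no counts in any library. Outside the cluster, Sult1e1, an estrogen sulfotransferase, had 15 and 22 counts in heterozygous and 91 and 102 in homozygous mTEC (log2 fold change -2.33 ± 0.286 SE, edgeR adjusted p = 1.26e-04). Smr3a, a salivary gland gene on the other flank, had 1 and 3 counts in heterozygous and 38 and 30 in homozygous mTEC. Odam and Smr3a passed the low-count filter through homozygous mTEC alone, so no test of them is given. Among the matched genes that lie within the cluster or are the next 3 on either side, Sult1e1 had the highest mean in homozygous mTEC after Csn2, Csn1s2a and Csn1s1, 4.47 CPM against 993.6 CPM for Csn2.

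**Figure D4:**
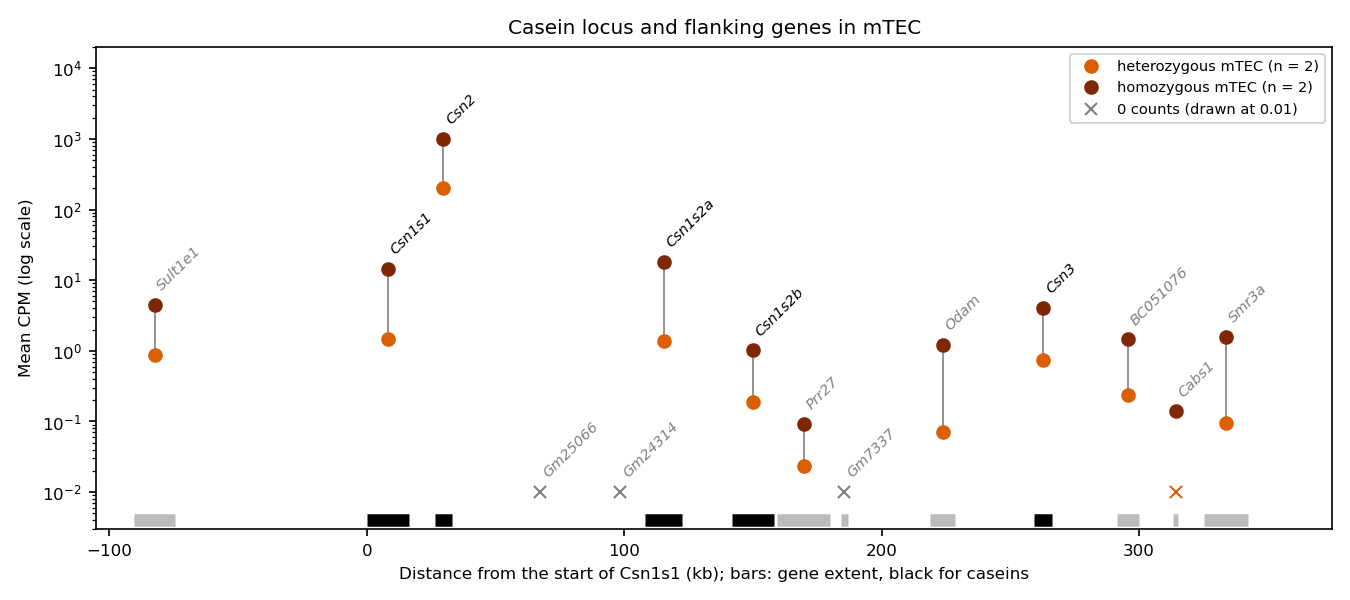
Mean CPM (log axis) of the casein genes and the matched genes within the cluster or next to it, up to 3 on either side, in heterozygous and homozygous mTEC (n = 2 each) against distance from the start of Csn1s1; bars at the bottom give each gene's extent, black for caseins, and crosses stand for 0 counts. Csn2 stands at 205.1 and 993.6 CPM, Csn1s1 beside it at 1.46 and 14.5 CPM, and Sult1e1 at 0.872 and 4.47 CPM.

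The wider list of neighbours and of related secreted phosphoproteins of bone, tooth and saliva had 19 tested genes. By dose in mTEC 16 of them were lower in heterozygous mice and 1 was higher, with a median of -2.68, beside 30.8% lower and 28.9% higher of all genes. Of the 19, 8 passed the filter through homozygous mTEC alone, and among the other 11 there were 8 lower and 1 higher with a median of -2.09. Spp1, the bone matrix protein osteopontin, averaged 7.12 ± 1.32 CPM in heterozygous and 66.2 ± 5.77 CPM in homozygous mTEC (log2 fold change -3.19 ± 0.161 SE, edgeR adjusted p = 1.74e-08). Amtn, the enamel protein amelotin, averaged 1.51 ± 0.669 CPM in heterozygous and 13.9 ± 1.70 CPM in homozygous mTEC (-3.17 ± 0.268, adjusted p = 3.42e-06). Rufy3 was the gene that was higher, at 0.40 ± 0.0910 (adjusted p = 0.00200). With DESeq2 14 of the list were lower and 0 higher, so the Rufy3 call was lost.

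Genes of like pattern were sought over the 10 transgenic libraries among 16381 genes by Pearson's r of log2(CPM + 0.5), given as a description, since the libraries fall into 4 groups. For Csn2 the nearest were Cyp2a5 (r = 0.998), Rptn, Ccdc96, Grap and Muc13. For Csn1s1 they were Mogat2, Hapln1, Hoxd3, Oc90 and Gata5, for Csn1s2a Psg26, Serpinb13, Klk5, Th and C1qb, and for Csn3 Sprr2i, Obp2a, Il1b, Dlx6os1 and Oc90. Csn1s2b had too few counts to be included as a starting gene. Among the caseins, Csn1s1 and Csn1s2a had r = 0.998 and Csn1s1 and Csn3 r = 0.998, while Csn2 and Csn1s1 had r = 0.934 and Csn2 and Csn3 r = 0.938. Csn1s1, Csn1s2a and Csn3 had at most 1 count in any transgenic cTEC library, so those points lie at or near log2(0.5). Their r values with each other and with Csn2 reflect this floor in part. The genes named depend on the measure: with Spearman's rho 1 of the 5 was shared for Csn1s1 and for Csn1s2a and 0 for Csn2 and Csn3.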

How the data were processed

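The deposited table held whole-number read counts per gene, made by the authors from polyA-selected RNA. The submitters' processing notes name Trimmomatic 0.32, TopHat2 2.0.10, Bowtie2 2.2.3, featureCounts, SAMtools, Picard 1.105, BWA 0.7.5 and MACS2 2.0.10 and the builds mm10 and GRCm38. Neither strandedness nor annotation is known, as both were not given in the sources used here. Reads shared by the similar genes Csn1s2a and Csn1s2b could be split by the counting. FLAG ChIP, input and ATAC samples were left out.

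The test was edgeR 4.0.16 under R 4.3.3 (glmQLFit and glmQLFTest, two-sided, TMM, filterByExpr with a minimum count of 10 and minimum total of 15, prior count 0.125, Benjamini-Hochberg adjustment over all genes tested, threshold 0.05). The 10 transgenic libraries shared a fit with 4 groups, and the 10 deletion libraries had their own. CPM uses raw totals. Exact permutation tests used scipy 1.17.1 on log2(CPM + 0.5), and pseudocounts of 0.1 and 1 were tried. Alternatives were RLE factors, no factors, no filter, DESeq2 1.42.0, limma-voom (limma 3.58.1), a replicate block, only the groups compared, all 20 libraries together and each library left out. The fit was checked on simulated counts. The labels do not say that libraries of a group came from separate mice, so p-values measure the spread between these libraries, which may be technical. Intervals and floors of 3 counts cover counting error only. Gene lists, from which up to 3 members of smallest p per direction and further genes picked for their role after their values were seen are named, and the casein genes were chosen with earlier results of these data known.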

Additional observations from a re-analysis of the deposited data

Results flagged for a closer look

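Csn1s2b and Csn3 each had a count in only 1 of the 5 deleted cTEC libraries. Deleted library 1 held 0.0461 CPM of Csn1s2b and 0.0461 CPM of Csn3, and the other 4 deleted libraries held 0 of both. Each value is 1 count. Dixon's ratio, the gap of the highest library to the next over the whole range, is then at its maximum by construction, so the mark says nothing about that library.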

How the results depend on the processing

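The number of casein genes called stayed within 1.5 times the reported number under 121 alternatives and moved further under 2. The exceptions were for the interaction of dose and compartment, with 0 members reported: 4 members passed with limma-voom, and leaving out each library gave between 0 and 1. Leaving aside the dose effect in cTEC and the interaction for Csn1s1, Csn1s2a, Csn1s2b and Csn3, which were at or under the floor in both transgenic cTEC groups, 396 fold changes of single members under alternatives kept their direction and side of the threshold, 8 turned sign, 1 gained its call (the Csn2 interaction without homozygous cTEC library 3) and 1 lost it (Csn1s2b by dose in mTEC with DESeq2). For Csn2 between deleted and control cTEC, reported as -0.016 on the log2 scale, the sign turned without normalization factors (0.00525) and with all 20 libraries in the same fit (0.00818), and leaving out each library gave -0.378 to 0.258. No value of these passed the test, and the cause was not tested. The 20 permutation results at other pseudocounts kept their side of the threshold. CPM on TMM-scaled totals moved 6 group means by over 1 SD and 24 by less, with Csn2 at 183 in heterozygous and 926 in homozygous mTEC. Without factors the median of all genes between homozygous mTEC and cTEC was 0.28, against 0.04 with them.

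Library numbers in the deletion set had same-number correlations of 0.602, 0.754, 0.0858, 0.352 and 0.450. Number 3 stood apart, and the reported tests left the libraries unpaired, although the numbers may pair the others. Deleted library 3 correlated best with control library 1 (0.174), and the other 4 correlated best with the control library of their own number. With a replicate block Csn2 had -0.22 ± 0.270 (SE; edgeR adjusted p = 0.617) between deleted and control cTEC and -2.25 between heterozygous and homozygous mTEC, and no count of members called changed. Depth limits Csn1s1, Csn1s2a, Csn1s2b and Csn3 in cTEC, where few or no counts were found.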
